A study of Bos taurus with 8 samples.

Results

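The genes described here are a list of 44 interferon response and antigen processing genes, chosen by gene symbol. They cover the interferon receptors and their kinases, transcription factors, sensors of viral RNA, antiviral effectors, the ISG15 and ADP-ribosylation factors, and the machinery that prepares peptides for class I antigen presentation. Values were found for 36 of the 44 among the 18871 named genes, and all 36 had at least 20 counts over the 8 samples, so that they were among the 18339 genes tested. *MX2*, *IFI44*, *IFIH1*, *OAS1X*, *OAS1Y*, *OAS2*, *RSAD2* and *BST2* were not analysed here.

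Type I interferons are secreted by cells that sense viral nucleic acid, and they act through the receptor chains IFNAR1 and IFNAR2, whereas interferon gamma acts through IFNGR1 and IFNGR2. Receptor-bound JAK1 and TYK2 phosphorylate STAT proteins, which enter the nucleus and, together with interferon regulatory factors, switch on genes that block viral replication and that cut, transport and display peptides on class I molecules. Stromal and fibroblast-like cells carry these receptors and express part of this gene program without added interferon.

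RNA-seq was performed on 8 preadipocyte clones, each grown from a single cell of the stromal vascular fraction of bovine fat, 4 from intramuscular fat (IMF) and 4 from subcutaneous fat (SF). The donors were adult male Angus-cross steers, of which the sample labels name 5 and the paper 6 for its whole study, and which IMF and SF clones share an animal is not stated. They are clones chosen for how they grew, looked and turned into fat cells, and not a random draw from their tissues. The paper places RNA collection in growth medium before confluence, whereas the series description places it after adipogenic induction, and no treatment with interferon or virus is named in either.

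The 4 clones of a group (IMF1 to IMF4 and SF1 to SF4) were the replicates, with n = 4 per group throughout. Total counts ranged from 19654917 in IMF1 to 29308882 in IMF2. Levels are given as counts or as CPM, counts scaled to the library size after TMM normalization, and levels of different genes are compared only as TPM, which also divides by gene length. A level of 3 counts, taken as the smallest that this depth could show, was worth 0.0981 CPM in IMF2 and 0.165 CPM in SF4, and it covers counting error only. Fold changes are on the log2 scale for IMF against SF, with a standard error (SE), and p-values are from edgeR's quasi-likelihood test, adjusted by Benjamini-Hochberg over all genes tested. Past the threshold are genes with an adjusted p under 0.05 and a log2 fold change of 1 or more in size.

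Among the 36 genes, *MX1* and *CMPK2* were higher in the IMF clones past the threshold, 2 genes where 4.78% of all genes tested were, and *IFNAR2* and *IRF7* were lower, 2 genes where 4.04% were. In either direction 4 of the 36 passed, against 8.82% of all genes. By the adjusted p alone, 4 genes were higher in IMF (*MX1*, *CMPK2*, *IFIT5* and *B2M*) and 5 were lower (*IFNAR2*, *IRF7*, *PARP14*, *ADAR* and *TYK2*), where the shares of all genes were 14.4% and 11.4%. All 4 IMF clones lay above all 4 SF clones in 8 of the 36 genes and below them in 3, where 18.0% and 14.1% of all genes did. These shares lie near those of all genes and are no result about the list. Its median log2 fold change was -0.20, against -0.03 for all genes tested. With scaling by total counts alone, the median of all genes moved to 0.12 and the share of calls that were higher in IMF from 54.2% to 66.7%, and among the 36 genes *ADAR*, *IRF7*, *PARP14* and *TYK2* lost and *PSMB9* gained an adjusted p under 0.05.

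**Figure D1:**
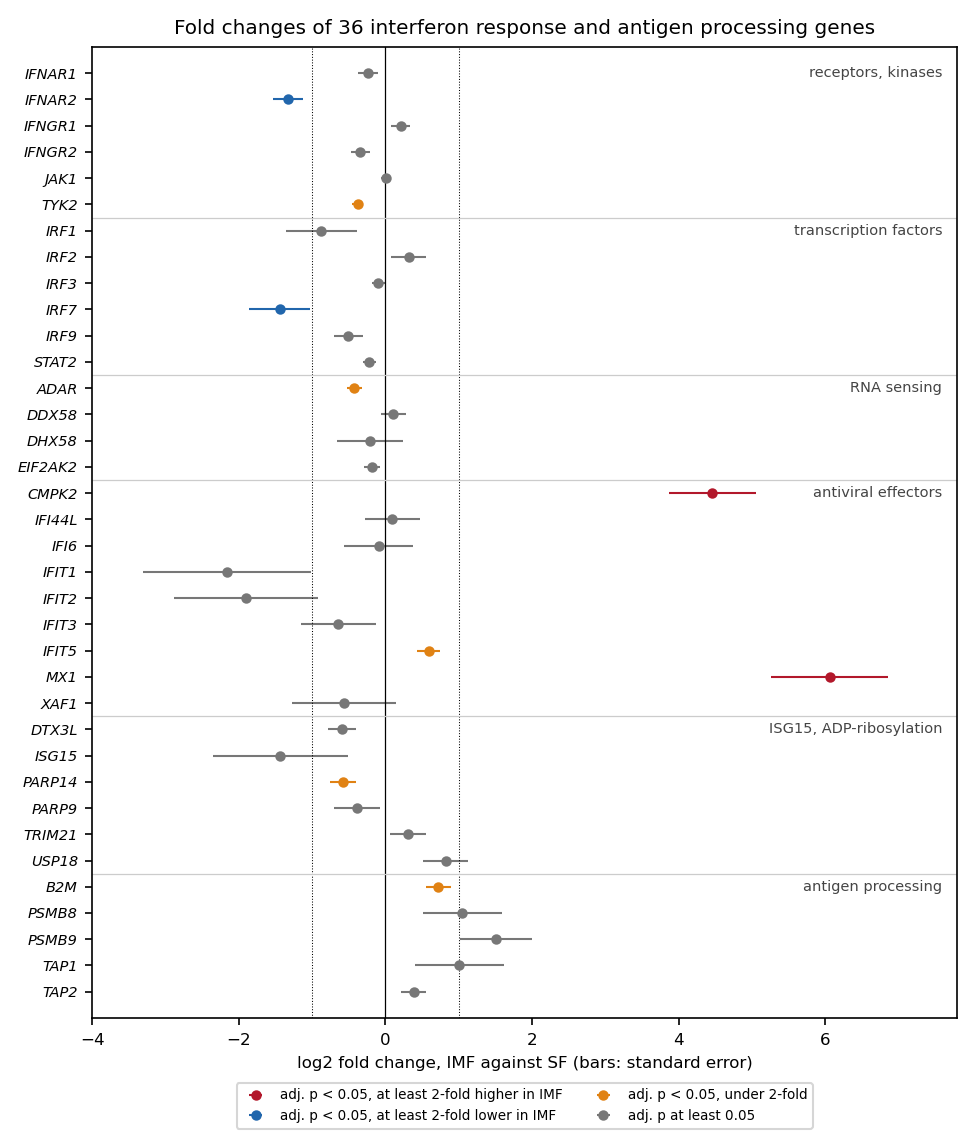
Log2 fold changes of the 36 genes tested between the 4 IMF and the 4 SF clones (x axis), with genes grouped by role (y axis), standard errors as bars and dotted lines at the threshold of 1 on either side. *MX1* at 6.06 and *CMPK2* at 4.46 lie far to the right of the other genes, while *IFIT1*, *IFIT2* and *ISG15*, with the longest bars, did not pass the test.

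The genes spread more among the SF clones than among the IMF clones. The SD of log2 CPM within a group had a median over the 36 genes of 0.12 for IMF and 0.48 for SF, against 0.15 and 0.29 over all genes tested. It was the larger in SF in 30 of the 36 genes, compared with 64.8% of all genes. SF4 was the lowest of the 4 SF clones in 20 of the 36 genes and the highest in 0, where it was the lowest in 21.7% of all genes and the highest in 23.9%. SF2 was the highest SF clone in 18 of the 36 genes and the lowest in 0, compared with 23.4% and 24% of all genes. With scaling by total counts alone, SF4 was the lowest in 26 of the 36 genes, where it was the lowest in 40.6% of all genes. Among the 50 other interferon response genes tested, described further below, SF4 was the lowest SF clone in 26 and the highest in 3 with TMM scaling. SF2 was the highest in 24 of these 50 genes and the lowest in 5, and the SD was the larger in SF in 42.

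**Figure D2:**
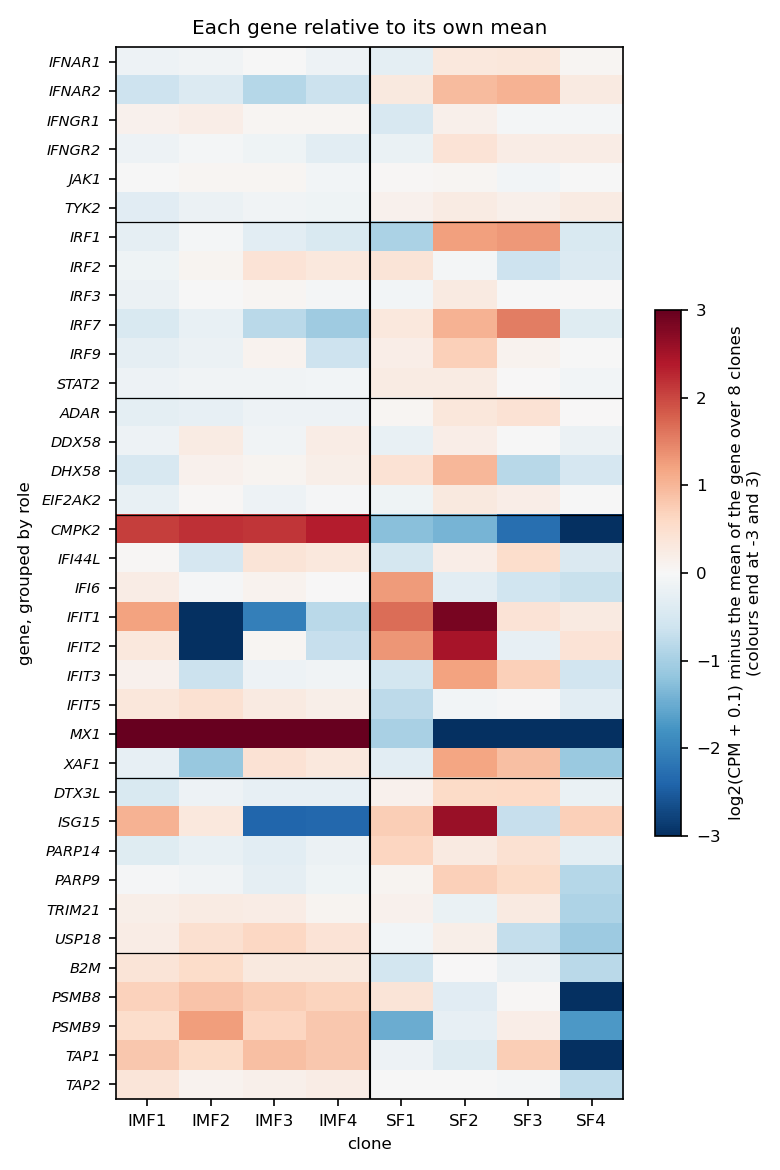
Level of each of the 36 genes in the 8 clones (columns), as log2(CPM + 0.1) minus the mean of the gene over the clones, with genes grouped by role from top to bottom and colours ending at -3 and 3. Among the 4 IMF columns the spread is largest in *IFIT1*, *IFIT2* and *ISG15*, and the SF4 column is lowest for the antigen processing genes at the bottom.

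Per unit of length, *ISG15* and *B2M* were the most abundant of the 36 genes. *ISG15* had a mean of 163 ± 166 TPM in IMF and 447 ± 467 TPM in SF (SD), above 97.1% and 98.7% of the genes tested, and *B2M* had 134 ± 11.6 and 81.6 ± 27.2 TPM. *IFNGR2* followed with 60.5 ± 6.67 and 76.1 ± 17.2 TPM. At the lower end, *IFIT2* had 0.200 ± 0.160 TPM in IMF, above 9.75% of genes, and *MX1* had 0.110 ± 0.185 TPM in SF, above 6.91% of genes.

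Of the 6 receptor and kinase genes, *IFNAR2* was lower in the IMF clones past the threshold and *TYK2* was lower by less than the threshold, and the median log2 fold change of the group was -0.29. Of all genes, 4.04% were lower past the threshold and 11.4% by the adjusted p alone. *IFNAR2* (chromosome 1, 2315591 to 2350080 in ARS-UCD2.0) encodes the signalling chain of the type I interferon receptor with the longer intracellular domain. It had 7.00, 8.14, 5.94 and 6.95 CPM in IMF1 to IMF4 and 13.4, 21.0, 22.5 and 13.3 CPM in SF1 to SF4. Every SF clone lay above every IMF clone, with SF2 and SF3 well above SF1 and SF4. The means were 7.01 ± 0.901 in IMF and 17.6 ± 4.89 CPM in SF (SD), a log2 fold change of -1.32 (SE 0.21, adjusted p = 0.00224).

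*IFNAR1*, the other chain of the same receptor, lies on the same stretch of chromosome 1 (2187824 to 2218344) and had 35.1 ± 1.58 CPM over the IMF clones and 41.4 ± 7.86 over the SF clones (log2 fold change -0.24, SE 0.13, adjusted p = 0.238). *IFNGR2*, which encodes a chain of the interferon gamma receptor and lies on that stretch too (2098171 to 2129613), had 87.4 ± 6.09 and 111 ± 18.8 CPM (log2 fold change -0.34, adjusted p = 0.0853). *IL10RB*, of the other receptor signalling genes listed, lies between the type I receptor genes and was named here after the values had been seen. Its log2 fold change was -0.58 (SE 0.13, adjusted p = 0.0108). In *IFNAR1* and *IFNGR2* the groups overlapped through SF1, the lowest of the SF clones for both. Without SF1, their log2 fold changes were -0.35 and -0.45 with adjusted p-values of 0.0191 and 0.0062. Over 18 alternatives the adjusted p ranged from 0.0191 to 0.725 for *IFNAR1* and from 0.0062 to 0.389 for *IFNGR2*.

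*TYK2*, the kinase bound to IFNAR1, had 50.2, 56.7, 59.0 and 58.2 CPM in the IMF clones and 69.7, 76.3, 70.6 and 75.2 CPM in the SF clones. The groups did not overlap and both were narrow. The log2 fold change was -0.38 (SE 0.07, adjusted p = 0.00666), and with scaling by total counts alone it was -0.23 with an adjusted p of 0.110, the highest of 18 alternatives, of which the lowest was 1.90e-06. *JAK1*, the kinase that both receptor types share, had 86.8 ± 3.84 in IMF and 86.4 ± 3.56 CPM in SF, with clones from 81.6 to 90.0 CPM (log2 fold change 0.01, SE 0.07, adjusted p = 0.961). *IFNGR1*, the ligand-binding chain of the interferon gamma receptor, had 23.6 ± 1.21 and 20.5 ± 3.53 CPM (log2 fold change 0.21, SE 0.13, adjusted p = 0.269).

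Among the 6 transcription factor genes, 1 was lower past the threshold, *IRF7*, where 4.04% of all genes were, and the median log2 fold change was -0.36. *IRF7* (chromosome 29, 50695346 to 50698451) encodes the regulator that drives most type I interferon genes. It had 53, 92, 43 and 34 counts in the IMF clones, or 2.54, 3.01, 1.95 and 1.62 CPM, and 86, 147, 256 and 49 counts in the SF clones, or 4.41, 7.36, 10.4 and 2.7 CPM. SF3 and SF2 were high, and SF4 lay below IMF2, so that the groups overlapped. Its log2 fold change was -1.44 (SE 0.41, adjusted p = 0.0339). The call was lost in 8 of 19 alternatives, with an adjusted p of 0.0751 by limma-voom, 0.0539 with scaling by total counts alone, 0.0658 without IMF1, 0.0833 without IMF3, 0.0864 without IMF4, 0.0732 without SF2, 0.0682 without SF3 and 0.734 against a log2 fold change of 1 (lowest over the alternatives 0.00475).

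*IRF1*, which is induced by interferon gamma and acts on class I and immunoproteasome genes, split the SF clones. It had 9.50, 11, 9.25 and 8.38 CPM in IMF1 to IMF4 and 5.90, 27.2, 28.5 and 8.32 CPM in SF1 to SF4. SF2 and SF3 lay far above the IMF clones, SF1 lay below them, and SF4 was level with IMF4, the lowest IMF clone (log2 fold change -0.88, SE 0.48, adjusted p = 0.224). SF2 and SF3 also had the highest values of *IRF7* and *IFNAR2*. *STAT2* and *IRF9*, whose proteins act in the complex that binds interferon-stimulated response elements, had lower means in IMF and did not pass, *STAT2* with 21.1 ± 0.393 against 24.6 ± 2.76 CPM (adjusted p = 0.105) and *IRF9* with 7.64 ± 1.57 against 10.8 ± 2.61 CPM (adjusted p = 0.107). Without SF4, *STAT2* had a log2 fold change of -0.28 and an adjusted p of 0.0442, the lowest of 18 alternatives that reached up to 0.687. *IRF2*, an antagonist of IRF1 at many sites, had 8.52 ± 1.41 and 6.84 ± 2.23 CPM (adjusted p = 0.369). *IRF3*, which is activated after RNA sensing, had 41.2 ± 2.68 and 44 ± 4.69 CPM (log2 fold change -0.10, adjusted p = 0.488).

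Of 8 genes that sense or edit double-stranded RNA, 4 were tested, and their median log2 fold change was -0.20. *ADAR*, which converts adenosine to inosine in double-stranded RNA and has an interferon-inducible form, had 59.7, 61.9, 65.8 and 65.7 CPM in the IMF clones and 75.9, 91.8, 98.3 and 73.5 CPM in the SF clones. All 4 SF clones lay above all 4 IMF clones, and SF2 and SF3 were again the highest. For *ADAR* the log2 fold change was -0.42 (SE 0.11, adjusted p = 0.0202). It was -0.28 with an adjusted p of 0.185 with scaling by total counts alone and -0.40 with an adjusted p of 0.0577 without IMF1 (range over 18 alternatives 0.00114 to 0.185). *EIF2AK2*, the kinase PKR that stops translation on binding double-stranded RNA, had 34.4 ± 2.76 in IMF and 39.1 ± 5.18 CPM in SF (adjusted p = 0.249). *DDX58*, which encodes the sensor RIG-I, had 5.12 ± 0.756 and 4.76 ± 0.669 CPM (log2 fold change 0.11, SE 0.17, adjusted p = 0.687). *DHX58*, a relative of RIG-I without a signalling domain, had 1.45 ± 0.302 and 1.69 ± 1.03 CPM, with SF2 highest at 3.00 CPM (adjusted p = 0.770).

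The antiviral effectors held the largest differences of the list. Of 13 genes, 9 were tested, 3 were higher in IMF with an adjusted p under 0.05 and 0 were lower by edgeR's test (0 lower also at an unadjusted p under 0.05, with *IFIT1* lower past the threshold in 1 fit that left out IMF1), while the median log2 fold change was -0.09. Of all genes, 14.4% were higher and 11.4% lower by the adjusted p. *MX1* (chromosome 1, 141668304 to 141706499) encodes a dynamin-like GTPase that traps viral nucleoproteins. It had 319, 434, 319 and 287 counts in IMF1 to IMF4 and 15, 2, 0 and 0 counts in SF1 to SF4. The IMF clones lay within a narrow range of 13.7 to 15.3 CPM, and SF2, SF3 and SF4 lay at or under the smallest level that could be shown. The means were 14.4 ± 0.686 in IMF and 0.217 ± 0.371 CPM in SF, a log2 fold change of 6.06 (SE 0.80, adjusted p = 0.00102). Over the fits that left out 1 clone, the log2 fold change of *MX1* ranged from 5.55 to 8.58. Against SF2, SF3 and SF4 alone, each set at 3 counts, *MX1* was at least 98.8-fold higher in IMF.

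*CMPK2* (chromosome 11, 90068133 to 90085403) encodes a mitochondrial nucleotide kinase that interferon induces. It had 125, 201, 139 and 154 counts in IMF clones and 10, 9, 5 and 0 in the SF clones. As for *MX1*, the IMF clones were close together, at 6.00 to 7.33 CPM, and far above each SF clone. The means were 6.55 ± 0.570 and 0.292 ± 0.236 CPM, a log2 fold change of 4.46 (SE 0.59, adjusted p = 0.00106). Both genes were past the threshold in all 19 alternatives, with an adjusted p of at most 0.00885 for *MX1* and 0.012 for *CMPK2*. Within 200000 bases of *MX1*, *BACE2* had a log2 fold change of 0.70 (adjusted p = 0.00148). Near *CMPK2*, *RNF144A* had 0.87 (adjusted p = 0.0181) and *TRNAC-GCA* had -0.13 (adjusted p = 0.764).

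**Figure D3:**
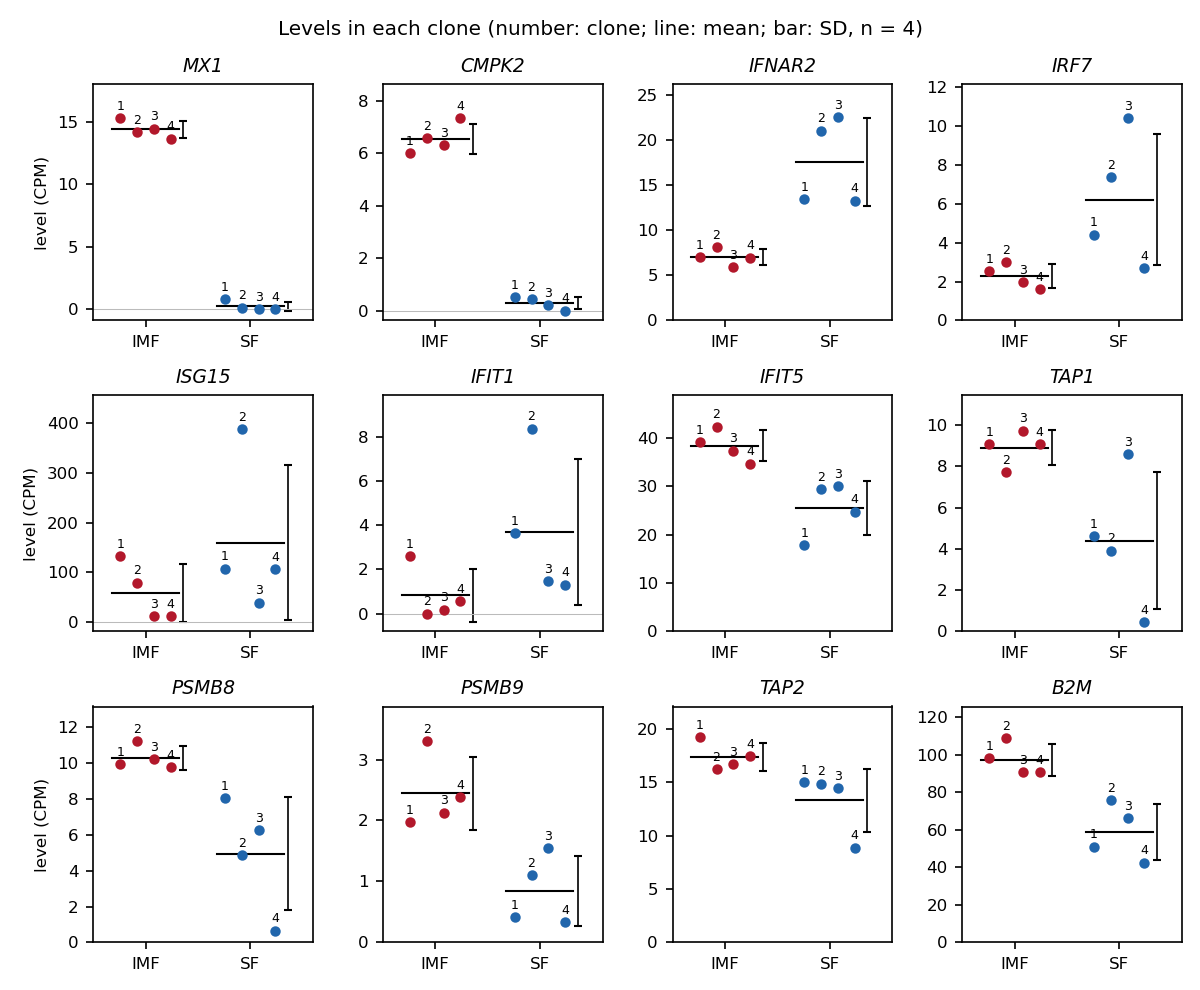
Level in CPM (y axis) of 12 of the genes in each of the 4 IMF and 4 SF clones (points, numbered by clone), with the group mean as a line and the SD as a bar. *MX1* and *CMPK2* separate the groups widely, whereas *ISG15*, at 12.3 to 132 CPM in IMF and 39.5 to 387 CPM in SF, does not, and SF4 is the lowest clone for *TAP1*, *PSMB8*, *PSMB9*, *TAP2* and *B2M*.

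*IFIT5* (chromosome 26, 11081800 to 11091762), whose protein and its relatives bind foreign RNA ends, had 39.1, 42.3, 37.4 and 34.6 CPM in the IMF clones and 17.8, 29.3, 30.0 and 24.7 CPM in the SF clones. The groups did not overlap, and SF1 was the lowest clone. For *IFIT5* the log2 fold change was 0.59 (SE 0.16, adjusted p = 0.0277). The adjusted p was 0.0618 without IMF1, 0.0748 without IMF2, 0.0628 without IMF3 and 0.0651 without SF4, and it ranged from 0.00418 to 0.0748 over 18 alternatives.

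*IFIT1* had 54, 0, 4 and 12 counts in IMF clones and 71, 167, 36 and 24 in the SF clones. *IFIT2* had 30, 0, 26 and 14 counts in IMF clones and 58, 134, 23 and 28 in the SF clones. In both genes SF2 was the highest clone and IMF2, the most deeply sequenced clone, had none, and the groups overlapped. The log2 fold changes were -2.17 (SE 1.15, adjusted p = 0.208) for *IFIT1* and -1.90 (SE 0.98, adjusted p = 0.196) for *IFIT2*, so that neither passed the test, and without SF2 they were -1.37 and -1.16. Without IMF1, *IFIT1* had a log2 fold change of -3.93 and an adjusted p of 0.0491, the lowest of 18 alternatives that reached up to 0.466. *IFIT3* had between 10 and 43 counts in a clone (log2 fold change -0.65, adjusted p = 0.400). *IFIT2*, *IFIT3* and *IFIT5* lie between 11028758 and 11091762 of chromosome 26, and another gene between *IFIT3* and *IFIT5*, *LOC100139670*, looked up after the values had been seen, averaged 17.8 CPM over the IMF clones and 61.8 over the SF clones (log2 fold change -1.80, SE 0.17, adjusted p = 0.000196). *LIPA* spans 10952398 to 11081825 of the same chromosome, which takes in *IFIT2*, *IFIT3* and *LOC100139670*. It had a log2 fold change of -0.47 (SE 0.17, adjusted p = 0.0775). Whether reads were shared between the genes of the IFIT family, or with *LIPA*, was not tested. On the other side of *IFIT5*, *SLC16A12* and *PANK1*, also named after the values had been seen, were higher in IMF. Their log2 fold changes were 5.16 (adjusted p = 0.00153) and 0.64 (adjusted p = 0.0187).

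*IFI6*, which encodes a small protein of intracellular membranes, had 83 counts in SF1 and 19 to 51 in the other 7 clones (log2 fold change -0.09, SE 0.47, adjusted p = 0.911), and without SF1 the log2 fold change was 0.64 (adjusted p = 0.0898, range over 18 alternatives 0.0898 to 0.952). *IFI44L*, an interferon-stimulated gene of little known function, had 15 to 42 counts (adjusted p = 0.886), and *XAF1*, a promoter of apoptosis, had 3 to 24 counts (adjusted p = 0.612).

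Of the 6 ISG15 and ADP-ribosylation factors, 1 was lower in IMF by the adjusted p alone, where 11.4% of all genes were, and the median log2 fold change was -0.48. *ISG15* (chromosome 16, 51464069 to 51465096) encodes the ubiquitin-like protein that is joined to other proteins after interferon. It had 2754, 2441, 272 and 262 counts in IMF1 to IMF4, or 132, 79.8, 12.3 and 12.5 CPM, and 2097, 7732, 974 and 1924 counts in SF1 to SF4, or 108, 387, 39.5 and 106 CPM. IMF1 and IMF2 were at the level of the SF clones, IMF3 and IMF4 were below every SF clone, and SF2 was the highest, so that the highest and lowest clone differed 10.7-fold within IMF and 9.79-fold within SF. The log2 fold change of -1.43 had an SE of 0.93 and an adjusted p of 0.301, and over the fits that left out 1 clone it ranged from -2.19 to -0.51. *USP18*, the protease that removes ISG15, had 2.88, 3.5, 3.85 and 3.33 CPM in the IMF clones and 2.31, 2.80, 1.46 and 1.10 CPM in the SF clones. Its groups were separated by a narrow gap between IMF1 and SF2 (log2 fold change 0.82, SE 0.30, adjusted p = 0.0821). Without SF2, *USP18* passed the threshold (1.06, adjusted p = 0.0371), and its adjusted p ranged from 0.0339 to 0.192 over 18 alternatives.

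*PARP9*, *DTX3L* and *PARP14* lie next to each other on chromosome 1 (66958506 to 67069566). DTX3L is a ubiquitin ligase that works in a complex with PARP9, and PARP14 is a mono-ADP-ribosyltransferase. *PARP14* had 34.6, 38.4, 36.2 and 39.7 CPM in the IMF clones and 70.4, 54.4, 61.1 and 36.3 CPM in the SF clones. SF1, SF2 and SF3 lay above the IMF clones, and SF4 lay among them. For *PARP14* the log2 fold change was -0.58 (SE 0.18, adjusted p = 0.0469), with an adjusted p of 0.05 or above in 11 of 18 alternatives, between 0.0799 and 0.105 without each of the clones other than SF4 in turn and 0.108 with the clone number as a block. *DTX3L* had the same arrangement of clones, with 5.82 ± 0.520 CPM over the IMF clones and 8.77 ± 2.18 over the SF clones (log2 fold change -0.59, SE 0.19, adjusted p = 0.0522), and *PARP9* had 4.44 ± 0.322 and 5.81 ± 2.46 CPM (adjusted p = 0.406). Without SF4 the adjusted p was 0.00283 for *PARP14*, 0.016 for *DTX3L* and 0.0485 for *PARP9*, the lowest of 18 alternatives in each, whereas the highest were 0.150, 0.174 and 0.718. *TRIM21*, a cytosolic antibody receptor and ubiquitin ligase, had 5.62 to 6.28 CPM in the IMF clones and 5.80, 4.55, 6.33 and 2.7 CPM in the SF clones (adjusted p = 0.408).

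The 5 antigen processing genes all had higher means in the IMF clones, with a median log2 fold change of 1.01, and all IMF clones lay above all SF clones in 4 of them, where 18.0% of all genes were so separated. By the adjusted p 1 of the 5, *B2M*, passed the test, where 14.4% of all genes were higher. *B2M* (chromosome 10, 103095506 to 103103791) encodes beta-2-microglobulin, the light chain of class I molecules. It had 98.3, 109, 90.9 and 90.8 CPM in the IMF clones and 51.1, 75.9, 66.1 and 42.5 CPM in the SF clones. The groups did not overlap, and SF4 was the lowest clone. The log2 fold change was 0.72 (SE 0.17, adjusted p = 0.0173), and without IMF2 it was 0.64 with an adjusted p of 0.0535, the highest of 18 alternatives, of which the lowest was 0.000937.

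The other genes, *TAP2*, *PSMB8*, *TAP1* and *PSMB9*, lie in this order between 7138820 and 7193346 of chromosome 23. *PSMB8* and *PSMB9* encode catalytic subunits that replace their constitutive counterparts in the immunoproteasome, and *TAP1* and *TAP2* encode the chains of the transporter that carries peptides into the endoplasmic reticulum. *PSMB9* had 41, 101, 47 and 50 counts in IMF clones and 8, 22, 38 and 6 in the SF clones, or 1.97 to 3.30 against 0.331 to 1.54 CPM. *PSMB8* had 207, 343, 225 and 205 counts in IMF clones and 157, 97, 154 and 12 in the SF clones, or 9.76 to 11.2 against 0.661 to 8.06 CPM. Both were separated between the groups, with SF4 at the bottom. The log2 fold change was 1.51 (SE 0.49, adjusted p = 0.0532) for *PSMB9* and 1.05 (SE 0.54, adjusted p = 0.196) for *PSMB8*.

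*TAP1* had 189, 236, 215 and 191 counts in IMF clones and 90, 78, 212 and 8 in the SF clones, or 7.72 to 9.75 against 0.441 to 8.60 CPM. *TAP2* had 19.2, 16.2, 16.7 and 17.4 CPM in the IMF clones and 15.0, 14.9, 14.4 and 8.87 CPM in the SF clones. SF3 reached the IMF range for *TAP1*, whereas for *TAP2* the IMF clones lay just above SF1 to SF3. The log2 fold change was 1.01 (SE 0.61, adjusted p = 0.267) for *TAP1* and 0.38 (SE 0.17, adjusted p = 0.128) for *TAP2*. *PSMB9* was past the threshold in 4 of 19 alternatives, with adjusted p-values of 0.0122 by DESeq2, 0.0304 by limma-voom, 0.0461 with scaling by total counts alone and 0.0236 without SF3 (1.95 on the log2 scale), and the highest was 0.787, against a log2 fold change of 1. Without SF4, *PSMB8* had a log2 fold change of 0.69 and an adjusted p of 0.0317, the lowest of its alternatives, which reached up to 0.313 in the others that tested against no change.

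SF4 was the lowest SF clone for each gene of this cluster. Its level was 13.0-fold under the mean of the other 3 SF clones for *TAP1*, 9.66-fold for *PSMB8*, 3.08-fold for *PSMB9* and 1.66-fold for *TAP2*, and for *PSMB9* SF1 lay close to it, with 8 counts against 6. On the log2 scale with a prior count of 2, the difference between SF4 and the mean of the other SF clones was -3.36 for *TAP1*, where 13 of the 15379 genes with a mean of at least 1 CPM were lower, and -3.08 for *PSMB8*, where 23 were lower. Among neighbours of the cluster, this difference was -3.57 for *BOLA-DMB*, -0.77 for *LOC618733* and -0.27 for *BOLA-DMA*. It was -0.13 for *RXRB*, -0.06 for *BRD2* and 0.25 for *GCLC*. Between the groups, the neighbour *H2B*, named here after the values had been seen, averaged 1.06 CPM in IMF and 0.254 CPM in SF. Its log2 fold change was 2.02 (SE 0.53, adjusted p = 0.0236). No other tested neighbour within 200000 bases, outside the cluster itself, had an adjusted p under 0.05.

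Genes outside the list that belong to the same pathway were taken from lists drawn up with it. Of 65 other interferon response genes, 50 were tested, 4 were higher and 1 lower past the threshold, 8 were higher and 4 lower by the adjusted p alone, and the median log2 fold change was 0.02. Of all genes tested, 4.78% and 4.04% passed in these directions and 14.4% and 11.4% did by the adjusted p alone, so that the counts of this list lie near those of all genes, and the genes that follow are values of single genes. *HERC6*, of the ligase family that joins ISG15 to proteins, had 33.7 to 38.5 CPM in the IMF clones and 11.7 to 18.8 CPM in the SF clones (log2 fold change 1.24, SE 0.14, adjusted p = 0.000447). *SERPING1*, the inhibitor of complement C1, had 11.4 ± 1.54 and 0.645 ± 0.652 CPM (4.15, adjusted p = 0.00112), and its log2 fold change was 5.12 without SF2. *LGALS9*, which encodes galectin-9, had 74 to 116 counts in IMF clones and 0 in each SF clone, and was at least 26.7-fold higher in IMF (adjusted p = 0.000154). *GBP4*, an interferon-inducible GTPase, had 48 to 83 counts in IMF clones and 0, 0, 4 and 0 in the SF clones (adjusted p = 0.00151). *IFI27*, a small mitochondrial interferon-stimulated protein, went the other way, with 8 to 22 counts in IMF clones and 98, 173, 240 and 52 in the SF clones (-3.54, SE 0.44, adjusted p = 0.000777). In each of these 5 genes the groups did not overlap.

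The 18 interferon ligand genes listed were not analysed here. Of 29 other receptor signalling genes, 25 were tested, and 1 was higher and 1 lower past the threshold, near the shares of all genes (4.78% and 4.04%). *SOCS3*, a feedback inhibitor of JAK kinases, had 14.5 ± 0.581 in IMF and 3.93 ± 0.420 CPM in SF (1.88, SE 0.11, adjusted p = 1.39e-05). *IRF8*, a factor of leukocyte development, had 5.2 ± 2.61 and 13.9 ± 4.65 CPM (-1.42, SE 0.38, adjusted p = 0.0261), and it lost the call in 5 alternatives, 4 of them fits without IMF2, IMF3, SF1 or SF4 (*IRF8* adjusted p 0.0645, 0.0667, 0.0547 and 0.0561).

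Of 36 nucleic acid sensing and adaptor genes, 33 were tested, and 4 were higher and 1 lower past the threshold, where 4.78% and 4.04% of all genes were. The bacterial lipid sensors *TLR2* (5.60 ± 0.816 against 0.393 ± 0.233 CPM, 3.80) and *TLR4* (5.95 ± 0.906 against 2.06 ± 1.05 CPM, 1.53) were higher in IMF, with adjusted p-values of 0.00026 and 0.0289. *NLRC5*, the transcriptional activator of class I genes, had 4.59 ± 0.508 and 2.05 ± 0.352 CPM (1.16, SE 0.19, adjusted p = 0.00279), and *STING1*, the adaptor of cytosolic DNA sensing, had 4.16 ± 0.242 and 2.06 ± 0.5 CPM (1.01, SE 0.21, adjusted p = 0.00877). *TBKBP1*, a partner of the kinase TBK1, had 19.6 ± 1.82 and 39.4 ± 3.58 CPM (-1.01, SE 0.10, adjusted p = 0.000218). The groups did not overlap in any of these 5 genes. *STING1* and *TBKBP1* lie so near a log2 fold change of 1 that small shifts take them under it, and *TLR4* had adjusted p-values of 0.0657, 0.0731, 0.0581, 0.055 and 0.0592 without IMF1, IMF2, IMF3, IMF4 or SF3.

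Of 21 class I and peptide loading genes, 20 were tested. *CTSL*, a lysosomal protease, was higher in IMF, with 3.61 ± 0.874 against 0.658 ± 0.345 CPM (2.43, SE 0.39, adjusted p = 0.00254). The class I heavy chain gene *BOLA* had 10.7 ± 0.725 and 21.4 ± 5.60 CPM (-1, SE 0.18, adjusted p = 0.00453), a fold change that was under 1 in size in 8 alternatives and reached -0.83 without SF1, and *CD1D*, which presents lipids, had 3.36 ± 0.388 and 8.28 ± 2.77 CPM (-1.30, SE 0.25, adjusted p = 0.00634). Whether class I genes shared reads was not tested. Of 22 genes of the constitutive proteasome and its activators, 21 were tested, 0 were past the threshold by edgeR's test and 15 were higher in IMF and 0 lower by the adjusted p alone (17 of the 21 at an unadjusted p under 0.05), with a median log2 fold change of 0.44, where 14.4% of all genes were higher and 11.4% lower. *PSMA7*, with the highest mean TPM of these, had 147 ± 12.4 and 106 ± 6.93 CPM (0.47, SE 0.09, adjusted p = 0.00507), and all IMF clones lay above all SF clones in 15 of the 21, where 18.0% of all genes were so separated. These genes moved together among the clones, with IMF2 the highest IMF clone in 20 of the 21 and IMF4 the lowest in 19. SF1 was the lowest SF clone in 16, so that the 21 genes are not separate observations. Of 18 class II genes, 7 were tested, and *RFX5*, a class II transcription factor, was the 1 with an adjusted p under 0.05 (0.54, adjusted p = 0.02).

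Most markers of skeletal muscle and of endothelial cells moved with the groups. All 18 skeletal muscle markers tested were higher in IMF past the threshold, where 4.78% of all genes were, with a summed level of 1323, 1291, 1304 and 1167 CPM in IMF1 to IMF4 and 26.8, 4.10, 11.3 and 36 CPM in SF1 to SF4. *ACTC1* had the highest mean TPM of these, and 8 of them, *MYOD1* and *MYOG* included, had 0 counts in every SF clone. Of 19 endothelial markers, 17 were higher in IMF and 0 lower past the threshold, with sums of 464, 467, 475 and 516 CPM against 83.6, 51.1, 44.9 and 64.4 CPM. *CLDN5* had the highest mean TPM of these over the 8 clones, and *KDR*, *CD93*, *SELE*, *EMCN* and *SOX18* had 0 counts in every SF clone. *MX1* and *CMPK2* were separated between the groups in the same direction, and the part of these other genes in that result was not tested.

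Of 22 leukocyte markers tested, 2 were higher in IMF and 5 were lower, where 4.78% and 4.04% of all genes were, with sums of 185, 138, 126 and 239.8 CPM in the IMF clones and 353, 228, 239.8 and 376 CPM in the SF clones. *CORO1A* had the highest mean TPM of these, with 38.6 ± 19.8 in IMF and 68.0 ± 25.8 CPM in SF, and none of the 22 had 0 counts in all clones of a group. *CD14*, 1 of the 2 higher calls, had a log2 fold change of 1.48. It lost the call only by glmTreat against a log2 fold change of 1 (adjusted p = 0.200). Of the 5 lower calls, those of *CD3E* and *IRF8* were lost in 7 and 5 alternatives, with adjusted p-values for *CD3E* of 0.0615 without IMF1, 0.103 without IMF2, 0.0507 without IMF3, 0.0706 without SF1, 0.0598 without SF2 and 0.102 without SF4, and the log2 fold change of *SPI1* was -0.98 without IMF3. Of 6 epithelial markers, *KRT14*, with the highest mean TPM of these, and *CDH1* were higher in IMF and 0 were lower. *KRT14* was not past the threshold in 6 alternatives, with adjusted p-values of 0.0612 without IMF2, 0.0604 without IMF3, 0.0607 without IMF4 and 0.063 without SF3, and a log2 fold change of 0.96 without SF2. *CDH1* had 0 counts in every SF clone, and the sums ranged from 4676 to 7369 CPM in the IMF clones and from 3218 to 5768 CPM in the SF clones. Of 12 preadipocyte markers, *CD34* was higher and *THY1* and *PPARG* were lower in IMF. *THY1* was not past the threshold in 10 alternatives, with adjusted p-values of 0.0698, 0.0714, 0.082 and 0.0812 without IMF1 to IMF4, 0.0706 without SF2, 0.0563 with the clone number as a block, 0.0524 by limma-voom and 0.0517 with scaling by total counts alone, and a log2 fold change of -0.88 without SF1. *ITGB1* had the highest mean TPM of these, the sums were 1427, 1478, 1412 and 1416 CPM against 2171, 1718, 1539 and 1854 CPM, and *CD34* was at or under 3 counts in each SF clone. Their part in the results above was not tested. By design each clone grew from a single cell, and whether any clone held cells of several types was not tested. In bulk RNA of a clone, fewer cells of a type and less RNA per cell cannot be told apart.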

How the data were processed

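RNA-seq of 4 IMF and 4 SF preadipocyte clones was used, with clones assigned to groups by the sample titles. The authors deposited 1 table of raw counts per gene and clone. By the paper, reads were trimmed with Trimmomatic 0.39, mapped by HISAT2 to the ARS-UCD2.0 assembly, then counted by featureCounts 2.0.2, whereas the submitters' processing notes list STAR 2.7.11a as the aligner. The annotation release was not given in the sources used here. The kit is described as non-stranded in the paper, whereas the labels describe dUTP second strands. Whether reads of genes that overlap on the other strand were counted apart was not tested. The same table holds the authors' group means of raw counts and their DESeq2 result (scaled mean, log2 fold change, its error, statistic, p-values and category), which were not used. The deposited gene length in bases was used for TPM. A row without a gene name, with 0.0148% to 0.0209% of the counts of a clone, was left out of library sizes and tests. The paper speaks of TPM, but the deposited values are integers and were taken as counts. Some gene symbols had been turned into dates in the table, 17 in all, and none of these was a member.

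The tests ran on genes that reached 20 counts in all, in edgeR 4.0.16 under R 4.3.3 (TMM factors, two-sided quasi-likelihood test, Benjamini-Hochberg adjustment over 18339 genes), and 532 genes under that total were not. SDs of log2 CPM used a prior count of 2. The code was tested on simulated data. Alternatives were DESeq2 1.42.0, limma-voom (limma 3.58.1), RLE, upper quartile or total count scaling, no filter, a filter of 10 counts in 4 clones, glmTreat against a log2 fold change of 1, a replicate block by clone number, robust dispersion, and fits without 1 clone each. A prior count of 2 for fold changes was added after seeing the data. Statements about 18 alternatives leave out glmTreat, which asks another question. The members and lists were chosen with earlier results of these data known. Genes were named by a rule: all members, with values in every clone for those with an adjusted p under 0.05 or the 5 largest SDs of a group at a mean of at least 1 CPM, at most 5 genes past the threshold per other list, and the most abundant or undetected markers. Values per clone of further members were added after they had been seen. Coordinates come from a RefSeq gene table of that assembly, in which 41 of the 44 members were found. Tables and figures were made with Python 3.11.15.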

Additional observations from a re-analysis of the deposited data

Results flagged for a closer look

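In 3 of the 36 genes, 1 SF clone lay far from the other 3 relative to the range of the group, and in 0 of the 36 did an IMF clone. The gap to the next clone over the range of the group was 0.905, 0.870 and 0.912 in the order below, larger than Dixon's critical value, which chance passes in about 1 of 20 groups, and over all genes tested 7.89% of SF groups and 7.19% of IMF groups were set apart. *IFI6* had 4.26 CPM in SF1, where the next highest SF clone had 1.35 CPM. *MX1* had 0.770 CPM in SF1, the next highest being 0.1 CPM. *TAP2* had 8.87 CPM in SF4, the next lowest being 14.4 CPM.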

How the results depend on the processing

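Of the 4 members past the threshold, 67 of 76 values over 19 alternatives kept the call and 9 lost it (8 of *IRF7* and 1 of *IFNAR2*). Of the 32 others, 602 of 608 values stayed uncalled and 6 newly passed. A loss of the adjusted p alone, as for *PARP14*, is not counted here. The sign changed in 17 of these 684 values, all in *IFI6*, *IFI44L*, *DHX58*, *IRF3* and *JAK1*, none of which passed the test. Tested against a log2 fold change of 1 (glmTreat), 631 of all genes were past the threshold in place of 1618, and 2 members in place of 4, with 2 members in place of 9 under an adjusted p of 0.05. *IFNAR2* had an adjusted p of 0.376 there, and at most 0.0119 in the other alternatives. This test asks for more than a 2-fold change by construction. Leaving out 1 clone, the members with an adjusted p under 0.05 numbered from 6 to 12 in place of 9. Those whose groups did not overlap numbered from 12 to 17 in place of 11, with 17 without SF4. That second number cannot fall when a clone is left out, and the share of all genes is not given for it. Its rise is therefore no result about the members or about SF4. With the clone number as a replicate block, 1489 genes and 4 members were past the threshold and 8 members had an adjusted p under 0.05, *PARP14* having lost it. No source says that the numbers mark pairs, so they were not taken as pairs. Same-numbered clones correlated with r from -0.0093 to 0.139 over 4 pairs, and 4 of the 8 clones correlated best with their own number. The differently numbered clones IMF2 and SF3 had r = 0.109, so that these correlations do not show whether the numbers mark pairs. The smallest difference that could be shown for genes with few counts in some clones, such as *IFIT2*, *IFIT3* and *XAF1*, was not tested. The clones also spread widely in *IFIT2*, with an SD of log2 CPM of 1.88 in IMF and 1.18 in SF. The promoter motif search was not run, since no promoter table was given. The cause of the differences between settings was not tested.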
